A study of Oryza sativa with 12 samples.

Results

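In developing rice caryopses, 45 of the 35587 genes listed in the deposited tables kept the *RGB1* RNA-interfered line *RGB1Ri-5* and its background *WYJ8* fully apart over both stages sampled, 5 and 10 days after flowering (DAF). A gene was taken as a member when its lowest FPKM over the 6 libraries of a genotype was at least 2 and at least 2 times its highest FPKM over the 6 libraries of the other genotype. FPKM count fragments by transcript length and by the mapped reads of each library, and genes missing from a library's table were set to 0. Of the 45 members, 29 were higher in *RGB1Ri-5* and 16 were higher in *WYJ8*. The members were thus chosen by their genotype difference in these same 12 libraries, so their genotype values are a description and no test of them is given.

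*WYJ8* is the rice cultivar Wuyujing 8, and *RGB1Ri-5* is a single transgenic line made in it, with a hairpin of a fragment of *RGB1* driven by the maize ubiquitin promoter, which is active in most tissues. Grains were sampled at 5 and 10 DAF from labelled panicles of field-grown plants, which gave 12 libraries, 3 in each of the 4 groups. Whether a library pools grains of several panicles is not stated. *RGB1* encodes the β subunit of the heterotrimeric G protein, a membrane switch that passes signals from receptors to the inside of the cell. During these days the rice caryopsis passes from cell division and cell formation in the endosperm to the deposition of starch and storage protein, while the maternal pericarp around it thins. A whole grain is sampled here, so fewer cells of a type and less RNA per cell cannot be told apart. The transcript of *RGB1* and the storage protein, embryo and pericarp marker genes were not analysed here, since no table used here pairs their names with the identifiers of the files.

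Only 1 of the 45 members, *SPL10*, could be given a gene name, through the list of transcription factors in the study's supplement. For the other 44 no table used here pairs the identifier with a name or a product, so they are described by position and level, and only 4 of them are given by identifier. Positions are those of the deposited tables, on Release 7 of the MSU rice annotation. Levels of different genes are compared below only as FPKM, a measure per transcript length.

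The size of this group has to be read against the whole table. In 17039 genes, 47.9% of those listed, all 6 libraries of at least 1 genotype were at 2 FPKM or more, so that the gene could have been a member, and 0.264% of these genes were. In the direction of *RGB1Ri-5* the share was 0.17%, and in the direction of *WYJ8* it was 0.0939%. The 6 libraries of each genotype did not overlap for 745 of the 17039 genes (4.37%), 543 of them higher in *RGB1Ri-5* (3.19%) and 202 higher in *WYJ8* (1.19%). Most genes that did not overlap were thus apart by less than the ratio of 2.

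**Figure D1:**
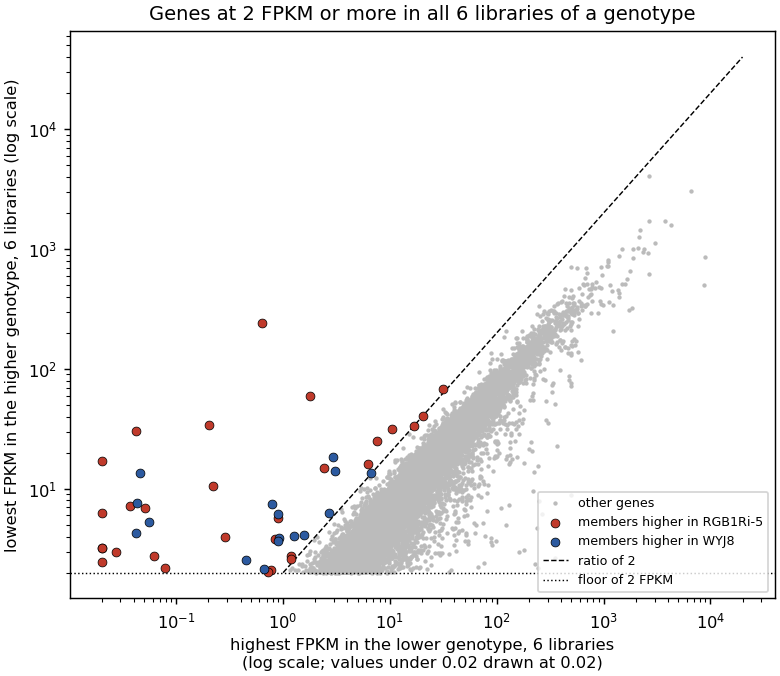
Each point is 1 of 17039 genes, with its highest FPKM in the lower genotype on the x axis and its lowest FPKM in the higher genotype on the y axis, both on log scales and over 6 libraries. Members lie above the dashed ratio line and the dotted floor of 2 FPKM, and 5 of the 29 members higher in *RGB1Ri-5* (red) stand at the left edge because no library of *WYJ8* lists them.

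Separation at both stages was far rarer than separation at a single stage. When the same floor and ratio were applied to the 3 libraries against 3 of a single stage, 1644 genes were higher in *RGB1Ri-5* and 1527 were higher in *WYJ8* at 5 DAF, compared with 4487 and 392 at 10 DAF. Of the genes higher in *RGB1Ri-5* at 5 DAF, 15.1% met the rule in the same direction at 10 DAF (249 genes, 5.55% of those at 10 DAF). In the direction of *WYJ8*, 143 genes did so, 9.36% of those at 5 DAF and 36.5% of those at 10 DAF. A further 342 genes were higher in *WYJ8* at 5 DAF and higher in *RGB1Ri-5* at 10 DAF, and 16 genes went the other way. Over the 21470 genes averaging 1 FPKM or more, the median log2 difference was taken as *RGB1Ri-5* minus *WYJ8*. On the deposited scale it was -0.07 at 5 DAF and 0.80 at 10 DAF. After rescaling the libraries (median of ratios, used again below) it was 0.008 and 0.002. The counts of single stages are not given after rescaling. Their balance, the shares and the genes that changed direction therefore hold for the deposited scale only. The 29 and 16 members made up 11.6% and 11.2% of the genes separated at each stage by itself.

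A single library held this number down. In *RGB1Ri-5* at 10 DAF, replicate 2 was the lowest of its 3 libraries for 68.9% of the 17039 genes. The same held for 20 of the 29 members higher in *RGB1Ri-5*, a similar share. Over all 6 libraries of *RGB1Ri-5*, replicate 2 at 10 DAF set the lowest value for 15 of these 29. No share over 6 libraries is given for all genes, so the 15 cannot be compared with them. Without that library, 89 genes were higher in *RGB1Ri-5* and 188 were higher in *WYJ8*, and the 45 members were among them. Of these, 172 were new in the direction of *WYJ8*. Their median FPKM was 120.1 in *WYJ8* at 10 DAF, 27.1 in replicate 2 and 2.34 in the other libraries of *RGB1Ri-5* at 10 DAF. These genes were found by leaving replicate 2 out, so its higher level in them is a description. Without *WYJ8* replicate 2 at 5 DAF, 45 genes were higher in *RGB1Ri-5* and 21 were higher in *WYJ8*. Leaving out any of the other 10 libraries gave 29 to 31 and 16 to 20 genes. What sets these libraries apart was not tested.

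Of the 232 genes that replicate 2 kept out, 2 were transcription factors of the supplement's list, and no excess of factors is read from this. Of its 122 factors that the files list, 92 were among the 17039 genes that could have been members, and *SPL10* alone was a member. With that library left out, a recount added after the data were seen, *OsNF-YB1* (LOC_Os02g49410), an endosperm subunit of the CCAAT-binding nuclear factor Y, and *DREB2C* (LOC_Os08g45110), of the ERF family, met the rule as well, both higher in *WYJ8*. The study had already listed both, as lower in the RNA-interfered line at 5 and 10 DAF, among candidate regulators of the auxin biosynthesis gene *OsYUC11*. From the time courses it then kept *OsNF-YB1* alone. *OsNF-YB1* stood at 147.9, 132.8 and 294.0 FPKM in *WYJ8* at 5 DAF and at 331.3, 320.2 and 252.3 at 10 DAF. In *RGB1Ri-5* its values were 0.155, 0.607 and 0.0754 FPKM at 5 DAF and 17.5, 109.6 and 8.04 at 10 DAF, where the middle value is the library in question. The genotypes did not overlap for *OsNF-YB1* even with that library, and only the ratio failed. *DREB2C* stood at 4.32 to 11.4 FPKM in *WYJ8* at 5 DAF and 27.4 to 31.0 at 10 DAF, against 0.0505 to 0.153 and 0.746, 6.68 and 0.541 in *RGB1Ri-5*.

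The members higher in *RGB1Ri-5* covered a wide range of levels. Their lowest value in *RGB1Ri-5* ran from 2.02 to 243.9 FPKM with a median of 6.98, and it was 20 FPKM or more in 9 of 29. Their highest value in *WYJ8* ran from 0 to 31.3 FPKM with a median of 0.639. For 16 of the 29, the lowest value in *RGB1Ri-5* was more than 10 times the highest in *WYJ8*, or *WYJ8* listed the gene nowhere. For 8 of the 29 the ratio was under 3. This direction thus held both genes that were near 0 in *WYJ8* and genes well expressed in both lines.

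LOC_Os10g42020 (chromosome 10, 22587836 to 22592132) was the most abundant of these genes. *RGB1Ri-5* had 367.5, 308.3 and 394.3 FPKM of it at 5 DAF and 611.8, 243.9 and 612.3 at 10 DAF. *WYJ8* had 0.178, 0.639 and 0.393 FPKM at 5 DAF, and at 10 DAF the gene was listed in 1 of the 3 libraries, at 0.383. The lowest library of *RGB1Ri-5* was thus 381.9 times the highest of *WYJ8*. Between the stages it did not pass the test in *RGB1Ri-5*, where the log2 fold change from 5 to 10 DAF was 0.34 (SE 0.30, adjusted p = 0.387 in limma).

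LOC_Os05g23260 (chromosome 5, 13282390 to 13287547) had the largest ratio among members listed in both lines. Its values in *RGB1Ri-5* were 30.6, 37.4 and 32.1 FPKM at 5 DAF and 53.2, 58.0 and 46.7 at 10 DAF. In *WYJ8* it was at 0.0423, 0.0424 and 0.0397 FPKM at 5 DAF and unlisted at 10 DAF, and the ratio of the nearest libraries was 723. All 3 libraries of *RGB1Ri-5* at 10 DAF lay above all 3 at 5 DAF. The log2 fold change was 0.64 (SE 0.12, adjusted p = 0.000973), under the fold limit of 1 used for calls.

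No library of *WYJ8* listed 5 of the 29 genes, and none of the 16 members higher in *WYJ8* was unlisted in all of *RGB1Ri-5*. A value of 0 in such tables can be a failed estimate, so these genes are said only to be unlisted. On chromosome 5, the gene at 11891585 to 11892757 was at 18.42, 21.99 and 21.38 FPKM at 5 DAF and 19.4, 17.1 and 19.1 at 10 DAF in *RGB1Ri-5*, about the same in all 6 libraries. A second, on chromosome 6 at 23521936 to 23526719, was as even, from 6.23 to 7.41 FPKM. Another on chromosome 6, at 25524537 to 25525259, had 5.70 to 6.97 FPKM at 5 DAF and 7.63, 3.20 and 7.49 at 10 DAF. On chromosome 9 (12916726 to 12919593) the values were 3.24 to 3.998 FPKM at 5 DAF and 4.46 to 6.16 at 10 DAF. The fifth, on chromosome 11 (19756548 to 19763118), was at 10.3, 16.2 and 9.74 FPKM at 5 DAF and 6.497, 2.465 and 7.892 at 10 DAF, and is the only one of the 5 called between the stages by the test below.

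**Figure D2:**
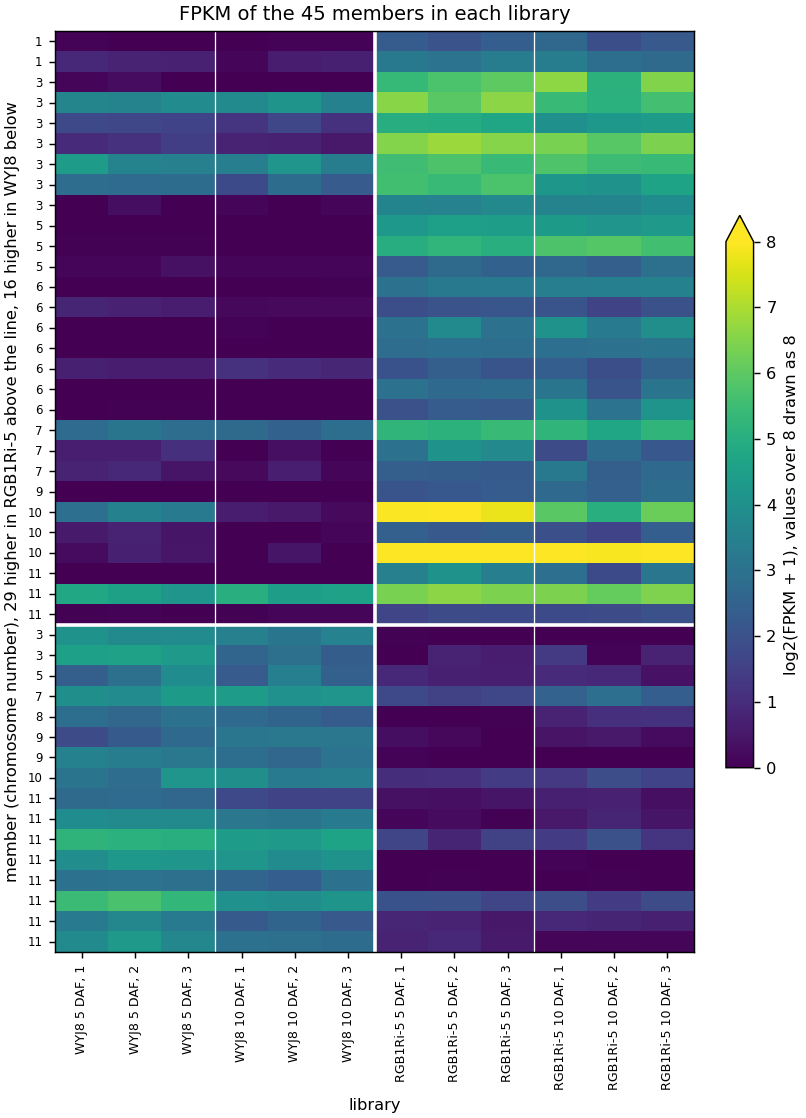
Rows are the 45 members, labelled by chromosome, columns are the 12 libraries, and colour is log2(FPKM + 1). The 29 members above the thick line are brighter in all 6 libraries of *RGB1Ri-5*, the 16 below it in all 6 of *WYJ8*, and replicate 2 of *RGB1Ri-5* at 10 DAF is darker than its neighbours in many of the upper rows.

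The 16 members higher in *WYJ8* were less abundant. Their lowest value in *WYJ8* ran from 2.14 to 18.6 FPKM with a median of 5.72, and none reached 20. Their highest value in *RGB1Ri-5* ran from 0.0422 to 6.65 FPKM with a median of 0.895. In 4 of the 16 the highest *RGB1Ri-5* value was under 0.1 FPKM, in 6 it lay between 0.1 and 1, and in 6 it was 1 or more. The ratio was under 3 in 3 of them and over 10 in 4.

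LOC_Os11g32780 (chromosome 11, 19362542 to 19366156) had the largest ratio in this direction, 299.7. It stood at 14.1, 18.4 and 17.1 FPKM in *WYJ8* at 5 DAF and at 16.8, 13.6 and 16.1 at 10 DAF. Of the 6 libraries of *RGB1Ri-5* only 1 listed it, at 0.0453 FPKM. Its levels at the *WYJ8* stages overlapped, with -0.08 between them on the log2 scale (SE 0.13, adjusted p = 0.565).

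LOC_Os03g04150 (chromosome 3, 1898917 to 1902195) came next, with a ratio of 177.3. *WYJ8* had 15.92, 12.99 and 13.54 FPKM at 5 DAF and 10.2, 7.67 and 10.8 at 10 DAF, while no library of *RGB1Ri-5* was above 0.0433. The stages of *WYJ8* did not overlap, and the log2 fold change was -0.53 (SE 0.14, adjusted p = 0.00443), under the fold limit and less of a decrease than the median of all tested genes, -0.77. The plot of the named members by library shows all 4 of these genes and *SPL10*.

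**Figure D3:**
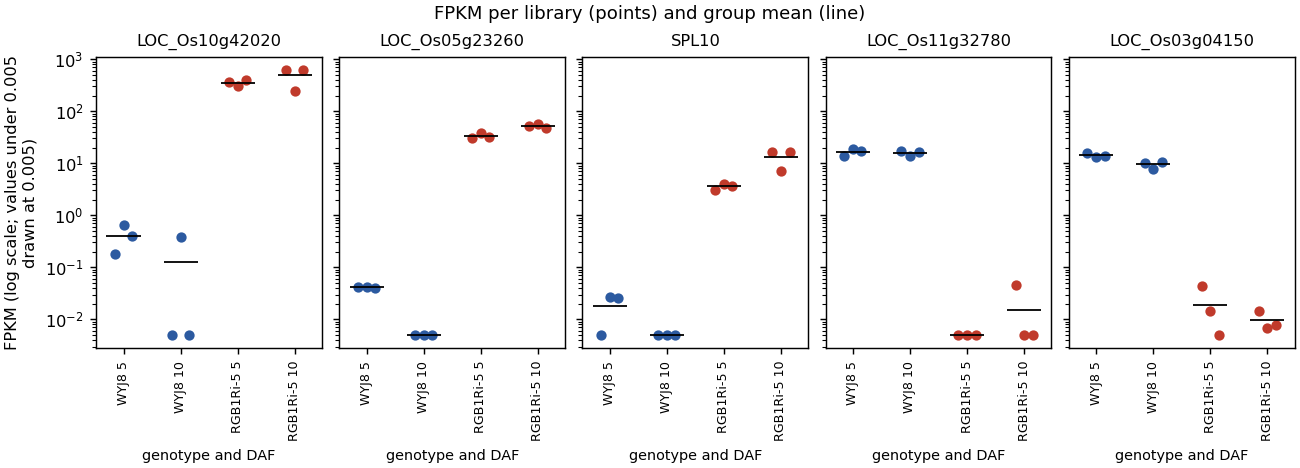
Points are FPKM per library on a log scale and lines are group means, for *WYJ8* (blue) and *RGB1Ri-5* (red) at 5 and 10 DAF, 3 libraries each. In each of the 5 genes the 2 genotypes are at least 110 times apart, and *SPL10* is the only one called between the stages.

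*SPL10* (LOC_Os06g44860, chromosome 6, 27114986 to 27117417) belongs to the SBP family of plant transcription factors, named after the SQUAMOSA promoter-binding proteins, whose SBP domain is known to bind DNA around a GTAC core. Members of the family act in the timing of phase change and in panicle and grain form in rice. In *WYJ8*, *SPL10* was at 0, 0.0272 and 0.0261 FPKM at 5 DAF and unlisted in all 3 libraries at 10 DAF. In *RGB1Ri-5* it was at 2.999, 4.071 and 3.671 FPKM at 5 DAF (mean 3.58 ± 0.542, SD, n = 3) and at 16.2, 7.20 and 16.5 at 10 DAF (mean 13.3 ± 5.28, SD, n = 3). The lowest library of *RGB1Ri-5* was 110.3 times the highest of *WYJ8*, and the stages within *RGB1Ri-5* did not overlap either.

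The stage difference of *SPL10* within *RGB1Ri-5* was not used to choose it and passed the test. From 5 to 10 DAF it rose in *RGB1Ri-5* by 1.57 on the log2 scale (SE 0.24, adjusted p = 0.000331 in limma). In *WYJ8*, where it was chosen for being low, it was too near 0 for a stage difference to show, so the interaction (the stage effect in *RGB1Ri-5* minus that in *WYJ8*) of 1.59 (SE 0.34, adjusted p = 0.00145) restates the change in *RGB1Ri-5*. Without replicate 2 of *RGB1Ri-5* at 10 DAF, the lowest of its group, the rise was 1.93.

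The other SBP genes of the same list give *SPL10* a background. The family was looked at after the values of *SPL10* were seen. Of 18 SBP genes listed in the files, 11 could have been members, and *SPL10* was the only one of these whose genotypes did not overlap. In the fit, 15 were tested, and *SPL10* was the only one called higher at 10 than at 5 DAF in *RGB1Ri-5* (7.56% of all tested genes were). *SPL6* and *SPL18* rose there by less than the fold limit of 1, by 0.60 (SE 0.12, adjusted p = 0.00175 in limma) and 0.67 (SE 0.16, adjusted p = 0.0059) on the log2 scale. With *SPL10* among them each time, 10 of the 15 were called higher in *RGB1Ri-5* at 10 DAF and 10 had an interaction called higher. Of all tested genes 36.4% and 41.4% were so called. After rescaling by the median of ratios the counts became 5 and 2, and the medians of all tested genes were 0.002 and -0.06. The shares of all tested genes called after this rescaling are not given, so the 5 and the 2 are a description. In *WYJ8*, 10 of the 15 fell between the stages, against 33.3% of all tested genes, whose median was -0.77. After rescaling by the median of ratios 4 of the 15 fell, against 7.38% of all tested genes. *SPL15*, the most abundant, fell by 1.25 on the log2 scale in *WYJ8* (SE 0.12, adjusted p = 8.64e-06), from 84.8 ± 4.05 to 35.0 ± 0.910 FPKM (SD, n = 3), and stood at 82.6 ± 5.01 and 85.8 ± 14.8 in *RGB1Ri-5*. *SPL6* was at 26.7 ± 2.86 FPKM in *RGB1Ri-5* and 44.0 ± 6.26 in *WYJ8* at 5 DAF, and at 40.8 ± 1.79 and 26.3 ± 1.91 at 10 DAF (SD, n = 3). The order of its genotypes thus turned between the stages on the deposited scale. At 10 DAF its difference, 0.62 on the log2 scale (SE 0.12), was below the median of all tested genes, 0.80.

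*SPL10* is in the study's list because its motif was predicted in the promoter of *OsYUC11*, an auxin biosynthesis gene. That list holds 8 predicted sites for it, of which 5 contain GTAC, the core that SBP proteins are known to bind and which reads the same on both strands. These 5 are shown because they are the only sequences that connect a member to a target named by the study, written as that list prints them, with the core of each match in capitals. The last pair are the same letters and hold the second entry within them, so the 5 entries may be as few as 3 places. Promoter sequences of other genes were not used here, so the share of promoters that hold GTAC is not given, and a predicted site is a match of letters only.
SPL10, minus strand: ttGTACTtt
SPL10, minus strand: atGTACTta
SPL10, minus strand: atacaAGTACcactta
SPL10, plus strand: aataatGTACTtaata
SPL10, minus strand: aataaTGTACttaata

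Position was not part of the rule, and the members were unevenly placed. They lay on 9 of the 12 chromosomes, with none on chromosomes 2, 4 and 12. Chromosome 11 carried 11 members, 24.4% of all, and 4.88% of the genes that could have been members. Of these 11, 8 were higher in *WYJ8*, out of the 16 members in that direction. Chromosome 6 carried 7 members, 15.6% against 7.98% of the genes, and all 7 were higher in *RGB1Ri-5*. Chromosome 3 carried 9, of which 7 were higher in *RGB1Ri-5*, 20% against 13.9%. Chromosome 1, with the most expressed genes (14.4%), carried 2 members. With replicate 2 of *RGB1Ri-5* at 10 DAF left out, in a recount also added after the data were seen, the stretch of chromosome 11 described next held 15 of the 277 genes then chosen (5.42%) and 4 of the 232 new ones (1.72%), and that of chromosome 6 held 9 (3.25%) and 2 (0.862%). The clustering was noticed in these data, and no test of it is given.

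**Figure D4:**
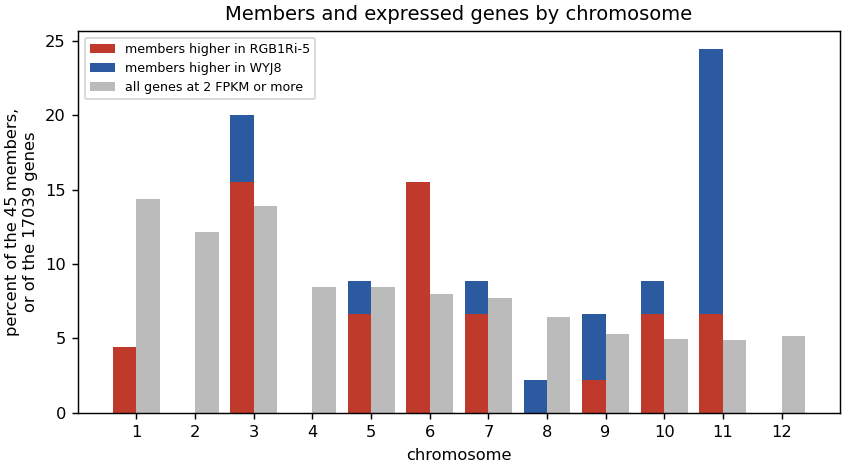
Bars give the percent of the 45 members on each chromosome (red, higher in *RGB1Ri-5*; blue, higher in *WYJ8*) beside the percent of the 17039 genes at 2 FPKM or more in all libraries of a genotype (grey). Chromosome 11 holds 24.4% of the members and 4.88% of the genes, and chromosomes 2, 4 and 12 hold no member.

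All 11 members of chromosome 11 lay within 2.62 Mb, from 18337723 to 20959702. This stretch held 98 of the 17039 genes (0.575%). In 25 of the 98 the genotypes did not overlap (25.5%), compared with 21 of 734 on the rest of the chromosome (2.86%) and 4.25% elsewhere in the genome. Leaving the 11 members aside, 14 of 87 genes there did not overlap (16.1%), 8 higher in *RGB1Ri-5* and 6 higher in *WYJ8*. In windows of 1 Mb with at least 10 such genes, 365 in all, the median share of genes that did not overlap was 4.08%. The window from 20 to 21 Mb of chromosome 11 ranked 1 with 27.7% (13 of 47), the window before it ranked 2 with 24.2% (8 of 33), and that from 18 to 19 Mb ranked 6 with 16.7% (4 of 24). Members made up 5 of the 13, 3 of the 8 and 3 of the 4, and members do not overlap by the rule. The ranks are thus partly set by the rule and are a description only.

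The stretch opened with a compact run of 3 genes higher in *WYJ8* within 0.0527 Mb, among 4 genes that could have been members. The first, at 18337723 to 18342838, was at 5.79, 6.01 and 5.19 FPKM in *WYJ8* at 5 DAF and 2.40, 2.14 and 2.14 at 10 DAF, against 0.246 to 0.661 in *RGB1Ri-5*. Its neighbour at 18372761 to 18378851 was at 12.8 to 13.9 FPKM in *WYJ8* at 5 DAF and 7.43 to 8.68 at 10 DAF, against 0.0414 to 0.782. The third, at 18382019 to 18390451, had the highest floor of all 16 members in this direction, with 32.0 to 35.5 FPKM at 5 DAF and 18.6 to 23.95 at 10 DAF in *WYJ8* and 0.793 to 2.92 in *RGB1Ri-5*. On the deposited scale all 3 thus stood lower in *WYJ8* at 10 DAF than at 5 DAF, but after rescaling by the median of ratios the log2 fold changes were -0.29, 0.24 and 0.29. Every library of *RGB1Ri-5* listed them.

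About 1 Mb on, 2 members close together were near 0 in *RGB1Ri-5*. These were LOC_Os11g32780, described above, and a gene at 19385005 to 19388767 with 6.82 to 7.32 FPKM in *WYJ8* at 5 DAF and 4.30 to 6.87 at 10 DAF, against at most 0.0422 in *RGB1Ri-5*. Further along, the gene at 20067783 to 20074731 was at 42.4, 51.6 and 38.4 FPKM in *WYJ8* at 5 DAF and 15.6, 14.2 and 16.7 at 10 DAF, against 1.61 to 3.04 in *RGB1Ri-5*. The last of the *WYJ8* genes, at 20758425 to 20759370 and at 20942415 to 20959702, had 9.01 to 11.9 and 11.96 to 19.1 FPKM at 5 DAF in *WYJ8*, and at most 0.897 and 0.893 in *RGB1Ri-5*.

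Genes of the opposite direction lay between them. Besides the unlisted gene at 19756548, one at 20402884 to 20405478 was the member best expressed in the lower genotype, at 67.9 to 96.3 FPKM in *RGB1Ri-5* and 16.9 to 31.3 in *WYJ8*. Another, at 20497481 to 20500414, was even in all libraries of *RGB1Ri-5*, from 2.17 to 2.99 FPKM, against at most 0.0781 in *WYJ8*. The stretch was therefore not lower as a whole in either genotype. The latter pair lost membership under 3 of the 4 rescalings tried, while all 8 *WYJ8* genes and the gene at 19756548 kept it under all 4.

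**Figure D5:**
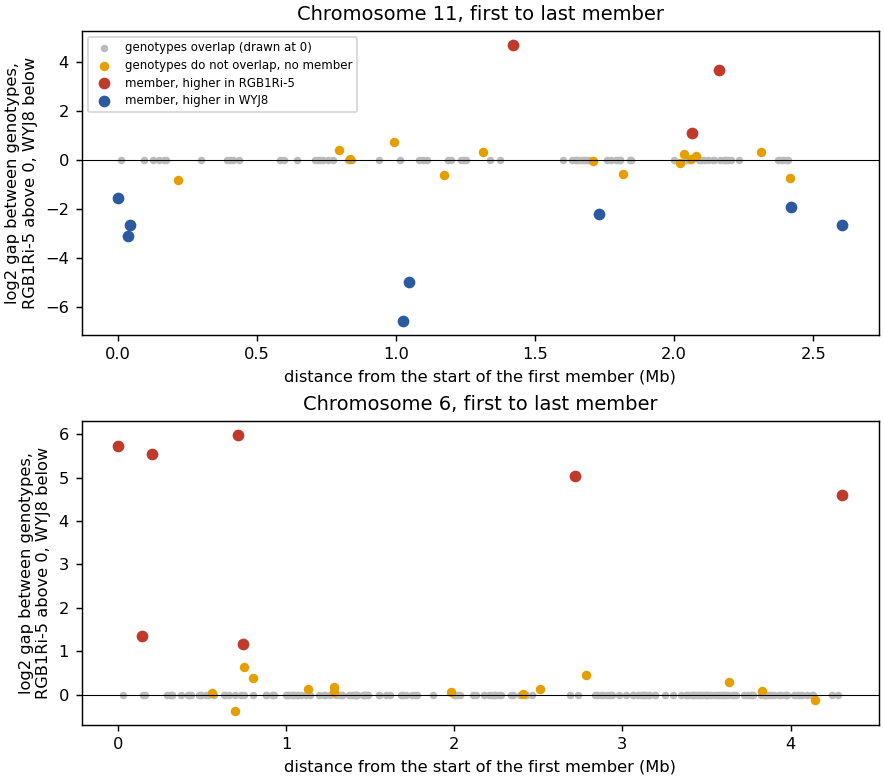
Each point is a gene at 2 FPKM or more in all libraries of a genotype, placed by its distance in Mb from the first member, with the log2 gap between the nearest libraries of the genotypes on the y axis after adding 0.1 FPKM (positive, higher in *RGB1Ri-5*; 0, ranges overlap). On chromosome 11 members and other separated genes (orange) go in both directions over 2.62 Mb, and on chromosome 6 all 7 members are higher in *RGB1Ri-5*.

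On chromosome 6 the 7 members spread over 4.31 Mb, from 22807524 to 27117417, with *SPL10* as the last of them. Of the 200 genes in this stretch that could have been members, 21 did not overlap (10.5%), compared with 44 of 1159 on the rest of the chromosome (3.80%). Without the members it was 14 of 193 (7.25%), 12 of them higher in *RGB1Ri-5*. The difference from the rest was smaller than on chromosome 11. The window from 23 to 24 Mb ranked 5 of 365 with 17.4% (8 of 46), and 3 of the 8 were members, which do not overlap by the rule. The window before it ranked 47 with 8.33% (2 of 24), and the 2 were members. These ranks are a description only.

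A run of 3 members opened the stretch, within 0.207 Mb. The first, at 22807524 to 22813269, was at 7.14 to 10.6 FPKM in the 6 libraries of *RGB1Ri-5* and listed in 1 of 6 in *WYJ8*, at 0.0364. It overlaps another listed gene of low level, and whether reads were counted by strand is not given in the sources used here. The second, at 22951396 to 22954845, was at 2.12 to 3.41 FPKM in *RGB1Ri-5* and in *WYJ8* at 0.521 to 0.774 at 5 DAF and 0.126 to 0.149 at 10 DAF. The third, at 23013154 to 23014890, was at 6.98, 12.8 and 7.04 FPKM at 5 DAF and 16.2, 8.78 and 14.5 at 10 DAF in *RGB1Ri-5*, against at most 0.0507. Of the members between this run and *SPL10*, a gene at 23549713 to 23552682 was low in both lines, at 2.78 to 4.82 FPKM against 0.567 to 1.19.

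Outside these stretches, 27 members were spread over the other chromosomes, mostly 1 to a window. Windows of 1 Mb that held a member numbered 33 of 380, and 27 of the 33 held a single one. The genes next to a member, on all chromosomes, that could have been members and were not numbered 81, and 9 of them did not overlap between the genotypes (11.1%, against 4.37% of all). Of the 9, 4 lay inside the stretches above, and of the 58 neighbours outside them 5 did not overlap (8.62%). By the run definition of 3 or more members with starts at most 200 kb apart, only the runs on chromosomes 6 and 11 described above were found, with 6 members in all. Runs numbered 1 at 100 kb and 3 at 500 kb, with 3 and 14 members.

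The identifiers of the members were unusual in another respect. Locus numbers of the MSU annotation mostly go up in steps of 10. Of the 17039 genes 7.86% carried a number that is not a multiple of 10, and of the 45 members 13 did (28.9%). By direction it was 11 of the 29 members higher in *RGB1Ri-5* (37.9%) and 2 of the 16 higher in *WYJ8* (12.5%). The members' spans on the genome were a median of 2868 bases in the direction of *RGB1Ri-5* and 3689 in that of *WYJ8*, compared with 3728 for all 17039 genes.

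Several well expressed members lay on chromosomes 3, 7 and 10. On chromosome 3, the gene at 887171 to 889518 was at 39.6, 52.0 and 63.6 FPKM in *RGB1Ri-5* at 5 DAF and 98.0, 34.0 and 88.5 at 10 DAF, and at most 0.201 in *WYJ8*. Also on chromosome 3, the gene at 10518910 to 10520197 was at 59.3 to 109.5 FPKM in *RGB1Ri-5* and 0.447 to 1.79 in *WYJ8*. The gene at 548480 to 554208 on chromosome 7 was well expressed in both lines, at 24.9 to 42.3 FPKM in *RGB1Ri-5* and 4.54 to 7.56 in *WYJ8*. These 3 genes were members under all 4 rescalings. For the gene at 887171, replicate 2 of *RGB1Ri-5* at 10 DAF was again the lowest library.

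Near the limit of the rule the values were close to those of genes left out. Just inside in the direction of *RGB1Ri-5* were the genes on chromosome 3 at 4367117 to 4368399 (33.6 against 16.8 FPKM) and at 11724995 to 11731577 (40.7 against 20.2 FPKM, overlapping another listed gene with a mean of 10.5). Just outside were a gene on chromosome 12 (13885480 to 13888224, 6.82 against 3.47 FPKM) and one on chromosome 4 (25658227 to 25666730, 12.4 against 6.45 FPKM). In the direction of *WYJ8* the gene on chromosome 7 at 8326643 to 8329267 (13.6 against 6.65 FPKM) and that on chromosome 10 at 21786108 to 21787038 (6.25 against 2.71 FPKM) were just inside. The nearest outside both lay in the stretch of chromosome 11, at 18552508 to 18556300 (6.46 against 3.59 FPKM) and 20754837 to 20757463 (2.81 against 1.66 FPKM). A further 8 and 7 genes met the ratio with a lowest value between 1 and 2 FPKM.

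Whether the members also changed with the stage of the grain is a question the rule did not use, so it was tested. Log2(FPKM + 1) of the 21470 genes averaging 1 FPKM or more, all 45 members among them, was fitted with limma, and calls needed both an adjusted p under 0.05 and a change of 1 or more on the log2 scale. Members were chosen for low values in one genotype, and in 29 of the 45 the highest value there was under 1 FPKM, where log2(FPKM + 1) can hardly change by 1. The counts are therefore read only in the genotype in which a member is high, where the floor and ratio of the rule still limit how far it can fall. Of the 16 members higher in *WYJ8*, 5 were lower at 10 DAF than at 5 DAF in *WYJ8* (31.3%, near the 33.3% of all tested genes). By limma 0 of the 16 were higher there, against 2.11% of all tested genes, and 1 was higher at an unadjusted p under 0.05. Of the 29 members higher in *RGB1Ri-5*, 5 were lower at 10 DAF in *RGB1Ri-5* (17.2%, against 9.35%), and 1 was higher, *SPL10* (3.45%, against 7.56%).

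All tested genes together stood lower at 10 DAF in *WYJ8*, with a median change of -0.77 on the log2 scale, whereas in *RGB1Ri-5* the median was 0.10. The 16 members higher in *WYJ8* had a median of -0.51 in *WYJ8*, and the 29 members higher in *RGB1Ri-5* had a median of -0.02 in *RGB1Ri-5*. After rescaling by the median of ratios, which brought the median of all genes in *WYJ8* to 0.01, the 16 members had a median of 0.39 there, with 3 called higher and 0 lower. In *RGB1Ri-5* the 29 members still gave 1 higher and 5 lower. The direction of the stage difference in *WYJ8* therefore depends on the scaling for the 16 members, and values in *WYJ8* are on the deposited scale unless the rescaling is named.

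Of the 5 genes higher in *WYJ8* that were called lower there at 10 DAF, 4 lay in the stretch of chromosome 11. The gene at 20067783 fell by 1.44 on the log2 scale (SE 0.17, adjusted p = 2e-05), and those at 18337723, 20758425 and 20942415 fell by 1.05, 1.10 and 1.02. After rescaling by the median of ratios these changes were -0.50, -0.29, -0.25 and -0.13, and none was called. The largest decrease was on chromosome 3 (36082359 to 36096572), from 22.1, 22.7 and 18.9 FPKM to 5.16, 6.71 and 4.15, so that it fell by 1.82 on the log2 scale (SE 0.30, adjusted p = 0.000174). It too was not called after the rescaling, at -0.94 (adjusted p = 0.0108).

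The 5 members that fell in *RGB1Ri-5* were all higher in that line. On chromosome 10, the gene at 1162912 to 1164485 was at 244.7, 349.5 and 214.4 FPKM at 5 DAF and at 61.2, 31.9 and 73.4 at 10 DAF in *RGB1Ri-5*, and it fell by 2.31 on the log2 scale (SE 0.28, adjusted p = 6.24e-05). In *WYJ8* it was at 6.64, 10.5 and 8.75 FPKM and then 0.510, 0.471 and 0.149, and fell by 2.80 (SE 0.28, adjusted p = 1.02e-05). It is the only member called between the stages in both genotypes, and its interaction was 0.49 (SE 0.40, adjusted p = 0.284). The other 4 were on chromosome 3 at 4367117 and at 18579735, on chromosome 7 at 14118021, and the unlisted gene on chromosome 11 at 19756548, with log2 fold changes of -1.01, -1.26, -1.34 and -1.06.

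The difference between the stage effects was tested as the interaction, whose median over all tested genes was 0.86. It was called higher for 7 members, against 41.4% of all tested genes, and lower for 2, against 6.94%. The 7 were *SPL10* and 6 genes higher in *WYJ8*, and the 2 were the genes at 4367117 on chromosome 3 and at 19756548 on chromosome 11, both higher in *RGB1Ri-5*. For *SPL10* and the gene at 19756548, at or near 0 in *WYJ8*, the interaction only restates the stage change in *RGB1Ri-5*. The 6 genes higher in *WYJ8* were likewise chosen for low values in *RGB1Ri-5*, at most 3.04 FPKM. A fall there had little room to show, so their interactions are a description. A rise did show for the gene at 25544094 on chromosome 8, by 0.985 in *RGB1Ri-5* (adjusted p = 0.000379 in limma) against -0.30 in *WYJ8* (adjusted p = 0.0968). That at 18372761 on chromosome 11 rose by 0.46 (adjusted p = 0.0137) against -0.67. For those at 36082359, 18337723, 20067783 and 20758425 the changes in *RGB1Ri-5* were 0.28, 0.22, -0.16 and 0.09. After rescaling by the median of ratios 2 members were called higher and 6 lower. The shares of all tested genes so called after the rescaling are not given, so these counts are a description. Of the 6 genes higher in *WYJ8* only that at 36082359 on chromosome 3 kept its call, at 1.16 (adjusted p = 0.0251). With the replicate number as a block, 1 gene was called lower. Beside the genotype contrasts, which chose the members, all 29 were called higher in *RGB1Ri-5* at both stages (10.8% of all genes at 5 DAF and 36.4% at 10 DAF) and all 16 were called lower (10.1% and 3.33%), and nothing is read from these counts.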

How the data were processed

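Reads were from whole grains (Illumina). The authors removed adapter and low-quality reads, aligned the others to the rice genome (MSU Release 7) with TopHat2 2.1.0, and deposited a table per library of gene FPKM computed in Cufflinks 2.1.1 (versions from the submitters' processing notes). Between 27055 and 29576 genes were listed per library and depth is unknown, so no counting error is given. Starts in the tables count from 0 and were raised by 1. Groups and replicate numbers came from the labels. Whether libraries stem from separate plants is not stated, so p-values measure only the spread between these samples.

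Members were chosen on the deposited FPKM, with unlisted genes as 0. The members, lists and tests were chosen with earlier results of these data known. Stage contrasts and their interaction were fitted on log2(FPKM + 1) of genes averaging 1 FPKM or more in limma 3.58.1 (R 4.3.3; 4 group means, mean-variance trend, Benjamini-Hochberg over 21470 genes). Fold changes on this scale understate changes of low genes. Tested on a simulated table of 21470 genes, the fit called 190 of 200 genes given a log2 difference of 2 between the *WYJ8* stages (95%). The 200 were drawn from the better expressed genes, and no shift common to all genes was simulated. The share therefore does not carry over to low genes or to the *WYJ8* stages as measured. Same-numbered libraries of *WYJ8* at 5 and 10 DAF deviated from their group means together (correlations of 0.11, 0.25 and 0.18), whereas those of *RGB1Ri-5* did not in every case (-0.10, 0.16 and 0.13). A replicate block was therefore fitted as an alternative.

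Genes named were, per direction, those with the largest ratio or the highest level, those nearest the limit, members of runs and members with a symbol, given by position beyond the 2 per direction for which identifiers are shown. Functional classes and tissue marker lists were not analysed here, since none of the 44 other members matched a table of names. Alternatives were other ratios, floors, gaps, pseudocounts, filters and rescalings, a model of 6 libraries, the block (also with the 6 libraries, added after seeing the data), no trend, no fold limit, and each library left out.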

Additional observations from a re-analysis of the deposited data

Results flagged for a closer look

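For 9 of the 45 members the change from 5 to 10 DAF differed between the genotypes by the interaction test in limma (adjusted p under 0.05 and a log2 difference of at least 1). The values are the stage effect in *RGB1Ri-5* minus that in *WYJ8*. Of the genes higher in *WYJ8*, the difference was 2.105 on chromosome 3 (36082359, adjusted p = 0.000866), 1.28 on chromosome 8 (25544094, adjusted p = 0.000323), and 1.27, 1.13, 1.28 and 1.19 on chromosome 11 (18337723, 18372761, 20067783 and 20758425). Of the genes higher in *RGB1Ri-5*, it was 1.59 for *SPL10* (adjusted p = 0.00145), -1.14 on chromosome 3 (4367117, adjusted p = 0.00423) and -1.06 on chromosome 11 (19756548, adjusted p = 0.0371). *SPL10* and the gene at 19756548 were at or near 0 in *WYJ8*, for which they were chosen, so their difference restates the stage change in *RGB1Ri-5*. The 6 genes higher in *WYJ8* were chosen for low values in *RGB1Ri-5*, at most 3.04 FPKM. A fall had little room to show there, so their differences are a description. The gene at 25544094 did rise there, by 0.985 (adjusted p = 0.000379 in limma), and that at 18372761 rose by 0.46 (adjusted p = 0.0137). For those at 36082359, 18337723, 20067783 and 20758425 the changes there were 0.28, 0.22, -0.16 and 0.09. The median over all tested genes was 0.86. After rescaling by the median of ratios, which brought that median to -0.06, 2 members were called positive and 6 negative. The shares of all tested genes so called after the rescaling are not given. Of the 6 genes higher in *WYJ8* above only that at 36082359 kept its call.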

How the results depend on the processing

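The number of members depends on the limits set and on single libraries. With a ratio of 1.5 in place of 2, 57 genes were higher in *RGB1Ri-5* and 28 higher in *WYJ8*, and with a floor of 5 FPKM 17 and 9. The balance of the directions, 29 and 16 on the deposited scale, depended on the scaling. Rescaling by the median of ratios gave 23 genes higher in *RGB1Ri-5* and 22 higher in *WYJ8*, and quantile normalization gave 27 and 23. An equal total per library gave 31 and 15, and an equal total without the 100 highest genes gave 25 and 26. Leaving out 1 library at a time, the counts ran from 29 to 89 and from 16 to 188, the highest both without replicate 2 of *RGB1Ri-5* at 10 DAF. Under all 4 rescalings 20 of the 29 and 14 of the 16 members were kept. Runs held 3 and 14 members at gaps of 100 and 500 kb.

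The counts of this paragraph run over all 45 members, also those chosen for low values in the genotype tested, so only their shifts are given. Of the members higher at 10 DAF in *WYJ8* (0 on the deposited scale), a pseudocount of 0.1 gave 1, median-of-ratios rescaling 5, quantile normalization 2, the total without the 100 highest genes 1 and no fold limit 1. Over all tested genes the shares were 2.34%, 7.05%, 5.49%, 4.02% and 3.87% in that order. Members lower at 10 DAF in *WYJ8* (6) became 12, 1, 1, 2 and 16 in the same order. With the pseudocount and the median of ratios, 45.4% and 7.38% of all tested genes were lower. Members higher at 10 DAF in *RGB1Ri-5* (1) became 4 with the pseudocount, 0 with a mean of at least 5 FPKM (8 at an unadjusted p under 0.05 with the mean of at least 1 FPKM), 2 with an equal total, 2 without the 100 highest genes and 6 with no fold limit. Members lower there (5) became 3 with the mean of at least 5 FPKM and 3 without the 100 highest genes. Interactions called higher (7) became 12 with the pseudocount, 3 with the mean of at least 5 FPKM, 2 with each of median-of-ratios rescaling, quantile normalization and the total without the 100 highest genes, and 14 with no fold limit. Interactions called lower (2) became 1 with the pseudocount, with all genes above 0, with the mean of at least 5 FPKM, with an equal total and with the replicate block, 6 with median-of-ratios rescaling and 5 with quantile normalization. In the model of all 12 libraries the replicate block changed no other count.

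With a library left out, these 6 counts ran from 0 to 1, 4 to 6, 1 to 2, 3 to 5, 7 to 8 and 0 to 2. For LOC_Os11g32780 the stage difference in *WYJ8* turned to 0.85, 0.64 and 0.49 under median of ratios, quantile normalization and the total without the 100 highest genes, and ran from -0.19 to 0.0038 with a library left out. For LOC_Os03g04150 it turned to 0.39, 0.26 and 0.0281, and ran from -0.61 to -0.39. In *RGB1Ri-5* the log2 fold changes ran from 0.12 to 0.78 for LOC_Os10g42020, from 0.57 to 0.72 for LOC_Os05g23260 and from 1.38 to 1.93 for *SPL10*, and none of these turned. The cause of these shifts was not tested. No depth can be had from FPKM, so it is unknown how many reads stand behind the low values near the floor.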
